A study of Mus musculus with 8 samples.

Results

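The Celsr cadherins (Celsr1, Celsr2 and Celsr3), the teneurins (Tenm1, Tenm2, Tenm3 and Tenm4) and the Flrt proteins (Flrt1, Flrt2 and Flrt3) are families of large or leucine-rich cell-surface proteins of the developing brain. The 10 genes were taken by symbol from a count table of 24047 rows, and all 10 were found there. The genes were chosen by name after fold changes and p-values of the same Ptch1cKO and WT libraries were known, so their differences between genotypes are given as a description and support nothing.

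RNA came from tdTomato-positive cells sorted as astrocytes from the somatosensory cortex of mice aged 23 to 25 days, after tamoxifen on 3 consecutive days from postnatal day 12 to 14. The 4 Ptch1cKO libraries came from Glast-CreERT2 mice with Ptch1fl/fl and the Ai14 reporter, in which tamoxifen-activated Cre deletes floxed Ptch1, the Sonic hedgehog receptor that restrains the pathway. The 4 WT libraries came from Glast-CreERT2 mice with Ai14 and no floxed Ptch1, so both groups carried Cre and received tamoxifen. Cre under the Glast promoter marks cells that use that promoter at the time of tamoxifen, together with their progeny. Whether the libraries of a group stem from different animals is not stated in the labels. The p-values reflect only the scatter among these libraries, which may be technical, in WT only in part. The sex marker counts given below show that the 4 WT libraries did not all come from 1 animal.

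Celsr proteins are atypical cadherins with a multi-pass membrane domain, the mammalian counterparts of fly Flamingo. They bind each other across cell borders and work with Frizzled and Vangl proteins in planar cell polarity, and in mice Celsr2 and Celsr3 are known for guiding axon tracts and neuronal maturation. Teneurins span the membrane once and carry a very large extracellular part that binds teneurins and latrophilins on the facing cell, and in the brain they match pre- and postsynaptic partners. Flrt proteins are fibronectin leucine-rich transmembrane proteins that bind latrophilins and Unc5 receptors and act in synapse formation and in the migration of cortical neurons.

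The promoters of 3 genes are shown because Celsr3 and Tenm3 were the genes with lower values in every Ptch1cKO library, and Celsr2, the most abundant Celsr gene, was not. The entries come from RefSeq on GRCm38.p6, the assembly of mm10, which held 8 of the 10 genes (none for Celsr1 and Flrt1). Each run gives the 250 bases before 1 annotated start, 5′ to 3′ on the gene's strand, with CG dinucleotides in capitals.
Celsr3, chr9:108825795-108826044, plus strand: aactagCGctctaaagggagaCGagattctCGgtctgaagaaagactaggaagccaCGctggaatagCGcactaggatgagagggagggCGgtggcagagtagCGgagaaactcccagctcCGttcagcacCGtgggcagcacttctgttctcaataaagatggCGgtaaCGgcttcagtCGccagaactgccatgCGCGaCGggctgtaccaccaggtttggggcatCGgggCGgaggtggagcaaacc
Tenm3, chr8:48674691-48674940, minus strand: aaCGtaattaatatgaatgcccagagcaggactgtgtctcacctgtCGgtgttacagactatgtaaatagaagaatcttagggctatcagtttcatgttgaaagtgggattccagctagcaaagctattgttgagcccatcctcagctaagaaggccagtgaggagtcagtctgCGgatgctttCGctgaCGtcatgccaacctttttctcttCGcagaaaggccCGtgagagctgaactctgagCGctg
Celsr2, chr3:108415580-108415829, minus strand: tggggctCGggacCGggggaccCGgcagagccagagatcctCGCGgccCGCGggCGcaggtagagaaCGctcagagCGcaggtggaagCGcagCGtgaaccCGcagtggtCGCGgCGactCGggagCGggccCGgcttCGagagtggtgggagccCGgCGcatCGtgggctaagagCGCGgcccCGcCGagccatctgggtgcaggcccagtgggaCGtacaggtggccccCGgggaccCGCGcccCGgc
The Celsr3 window held 17 CG dinucleotides, the Tenm3 window 8 and the Celsr2 window 32, against a median of 6 over 32851 promoter windows of the same length. The Tenm3 start lies inside the gene as GENCODE annotates it, as do the starts of Tenm1 and Tenm2 and 1 Tenm4 start. The windows of these starts therefore do not lie at the outer start of the gene. The letters GACCACCCA, the consensus bound by Gli factors, were searched on both strands and were in none of the windows of the 8 genes, and 0.225% of all windows hold them. The looser form GACCNCCCA was also in none of them, against 0.868% of all windows. The short core CCACCC, which overlaps the longer forms, was in the windows of Tenm4 and Flrt2 and in 28.1% of all windows. None of the 3 printed windows holds that core.

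Library totals ran between 4061274 and 7043378 counts in Ptch1cKO and between 4958119 and 7206462 in WT. Astrocyte markers were present in every library: the 9 listed genes summed to between 15716 and 32177 CPM (counts scaled to library size) in Ptch1cKO and between 20525 and 30315 CPM in WT. Transcripts of other cells were present too. The 10 neuron markers summed to between 4019 and 5198 CPM in Ptch1cKO and between 4078 and 5601 CPM in WT, and the 7 oligodendrocyte markers to between 17492 and 23120 CPM in Ptch1cKO and between 13790 and 26683 CPM in WT. Microglial markers summed to 400 to 1022 CPM in Ptch1cKO and 363 to 707 CPM in WT. Oligodendrocyte precursor markers summed to 116 to 178 CPM in Ptch1cKO and 83.8 to 153 CPM in WT. Fold changes were positive in 7 of 7 microglial, 5 of 5 tested precursor and 5 of 7 oligodendrocyte markers, against 5438 of 10954 tested genes. Of the 7 oligodendrocyte markers 4 had an unadjusted p under 0.05 by edgeR (background 9.34%). In these 3 sets 0 passed after adjustment over all genes. The 6 endothelial markers summed to between 3.80 and 10.2 CPM in Ptch1cKO and between 3.03 and 10.1 CPM in WT, and 2 of the 6, Cldn5 and Pecam1, were below 1 CPM in all 8 libraries. The sum of 7 markers of immature neurons and progenitors was highest in WT replicate 1, at 272 CPM, followed by 99.3 CPM in WT replicate 2. In the other WT libraries the sum was 29.6 and 34.6 CPM, and in Ptch1cKO it lay between 37.4 and 65.5 CPM. Ptch1 itself averaged 223 ± 40.8 CPM in Ptch1cKO and 357 ± 122 CPM in WT (SD, n = 4 each), with overlapping ranges. Its log2 fold change was -0.67 (SE 0.22), with an adjusted p by edgeR of 0.349. It was negative in all 17 alternatives and passed over all genes in 1 of them.

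Per transcript length, Tenm3 was the most abundant of the 10 genes in both genotypes, at 36.6 ± 1.23 TPM in Ptch1cKO and 62.7 ± 8.63 TPM in WT (authors' deposited TPM, SD, n = 4 each). It was followed by Tenm2, with 21.6 ± 6.43 TPM in Ptch1cKO and 30.6 ± 6.91 TPM in WT, and by Celsr2, with 17.4 ± 3.14 TPM in Ptch1cKO and 16.6 ± 5.13 TPM in WT. The lowest was Celsr1, at 0.353 ± 0.133 TPM in Ptch1cKO and 1.07 ± 1.06 TPM in WT. In both genotypes Tenm3 lay above Tenm2 in level with no overlap between their libraries, whereas Tenm2 and Celsr2 overlapped. In WT, Tenm1, Tenm4, Celsr3, Flrt1, Flrt2, Flrt3 and Celsr1 followed, each overlapping the next in that order. In Ptch1cKO the order after Celsr2 was Flrt1, Tenm4 and Tenm1, each overlapping the next, and then, with a gap below Tenm1, Flrt2, Celsr3, Flrt3 and Celsr1. Exome capture was used to enrich the libraries, and its efficiency for each gene also enters a comparison of levels between genes.

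All 10 genes passed the filter on low counts. None of them passed when p-values of the edgeR quasi-likelihood test were adjusted over all 10954 genes tested (Benjamini-Hochberg, 0.0772 to 0.967), of which 11 genes, or 0.10%, passed. An unadjusted p under 0.05 was found for 5 of the 10 by edgeR, against 9.34% of all tested genes. Of these 5, 4 were lower in Ptch1cKO (background 4.54%) and 1 was higher (background 4.80%). Among the lower ones, Celsr1 reached the filter cutoff in 1 Ptch1cKO and 3 WT libraries, and Flrt3 in 2 Ptch1cKO and 4 WT libraries. Celsr1 and Flrt3 thus passed the filter mainly through WT, where they were higher. Their unadjusted p by edgeR was 0.41 without WT replicate 1 (Celsr1) and 0.34 without WT replicate 4 (Flrt3). DESeq2 called 2 genes, Celsr3 and Tenm3, against 0.721% of all tested genes, had 5 with an unadjusted p under 0.05, against 9.77%, and gave no adjusted p for Celsr1 and Flrt3. The groups did not overlap in 3 of the 10 (Celsr3, Tenm3 and Flrt1), against 5.02% of all tested genes, and of these 3 genes 2 were lower (background 2.50%) and 1 was higher (background 2.52%). The fold change was negative in 8 of the 10, with a median of -0.50 on the log2 scale, against -0.0019 over all tested genes. Since the genes were chosen with this contrast known, nothing is read from these counts. Fewer cells of a type and less RNA per cell cannot be told apart in these bulk samples.

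**Figure D1:**
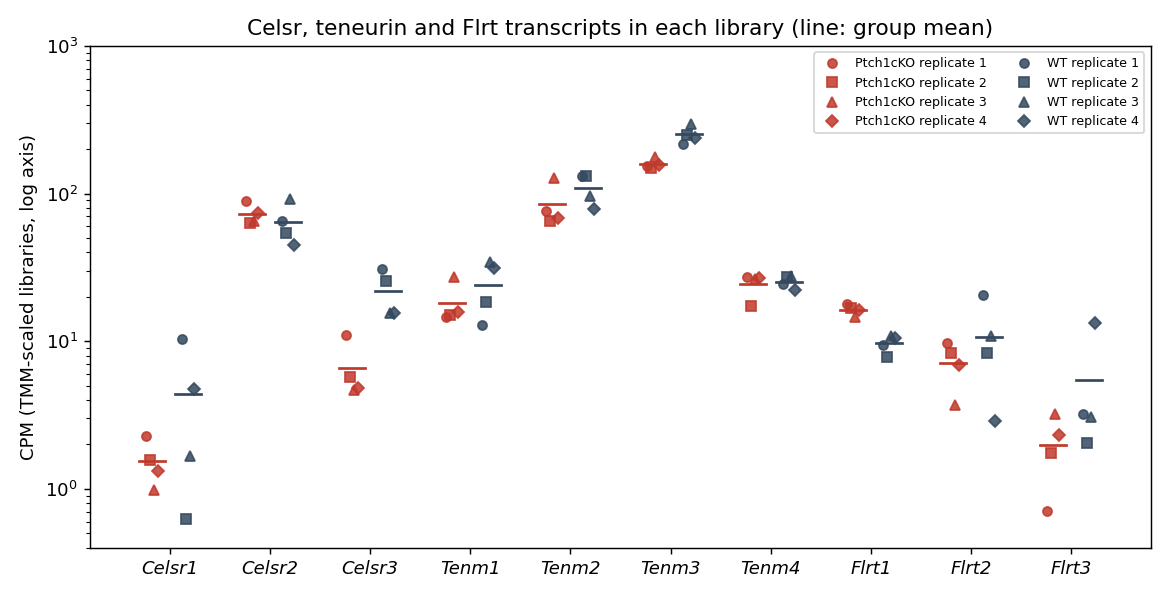
Level of each of the 10 transcripts in CPM (log axis) in every library, with Ptch1cKO to the left of WT for each gene, 1 symbol per replicate number and a line at the group mean (n = 4 each). The groups part without overlap in Celsr3, Tenm3 and Flrt1, and single WT libraries stand high in Celsr1 (replicate 1) and Flrt3 (replicate 4).

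Among the Celsr cadherins, Celsr3 had lower values in all 4 Ptch1cKO libraries. Celsr2, the main Celsr transcript of these libraries, did not part by genotype, and Celsr1 was scarce. Celsr3, needed in mice for the major axon tracts of the forebrain, had 11.1, 5.73, 4.67 and 4.79 CPM in Ptch1cKO replicates 1 to 4, against 31.0, 25.5, 15.5 and 15.6 CPM in WT replicates 1 to 4. The highest Ptch1cKO library lay below the lowest WT library, and Ptch1cKO replicate 1 lay well above the other 3 of its group. The counts behind these values were 78, 33, 19 and 29 in Ptch1cKO and 184, 162, 111 and 76 in WT. The log2 fold change was -1.71 (SE 0.33), which is 0.305 times the WT level, and Celsr3 ranked 14th of 10954 genes by p (edgeR, Benjamini-Hochberg adjusted p = 0.0772; DESeq2, 0.000343). Over the alternatives tried the adjusted p lay between 4.68e-06 and 0.465. Celsr3 lies on chromosome 9 of GRCm38 at 108826320 to 108852969, plus strand, and its longest coding transcript has 36 exons and 3309 codons. A microRNA gene, Gm23156, overlaps its exons on the same strand.

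Celsr3 was highest in WT replicates 1 and 2, the libraries with the highest sums of immature neuron and progenitor markers. Of those 7 markers 6 could be tested, 5 had negative and 1 a positive fold change, 0 passed by edgeR over all genes and 1 had an unadjusted p under 0.05. In WT replicates 3 and 4 the marker sum was below, and Celsr3 above, that of every Ptch1cKO library. In the column names WT replicates 1 and 2 share the prefix s1 and WT replicates 3 and 4 the prefix s5, whose meaning is not given. Within WT the marker sum and a batch behind these prefixes cannot be told apart. The part of such cells in the Celsr3 difference was not tested. With only these 2 WT libraries against the 4 Ptch1cKO libraries, a comparison chosen after seeing the data, the log2 fold change was -1.22 (SE 0.37), with an adjusted p of 0.288 by edgeR. Without WT replicate 1 it was -1.5 (SE 0.34), and without Ptch1cKO replicate 1 it was -2.10 (SE 0.33), the only case among the 8 with 1 library left out in which Celsr3 passed (adjusted p = 0.0360).

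The WT group was split by an X-linked marker of sex. WT replicates 2 and 3 had 1148 and 612 counts of Xist, the transcript of the inactive X, while the 4 Ptch1cKO libraries and the remaining WT libraries had at most 4 each. In the 6 libraries with under 10 Xist counts, the log2 fold change was -1.81 (SE 0.39) for Celsr3, -0.52 (SE 0.16) for Tenm3 and 0.72 (SE 0.29) for Flrt1, and none passed by edgeR (adjusted p of 0.203, 0.453 and 0.569).

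**Figure D2:**
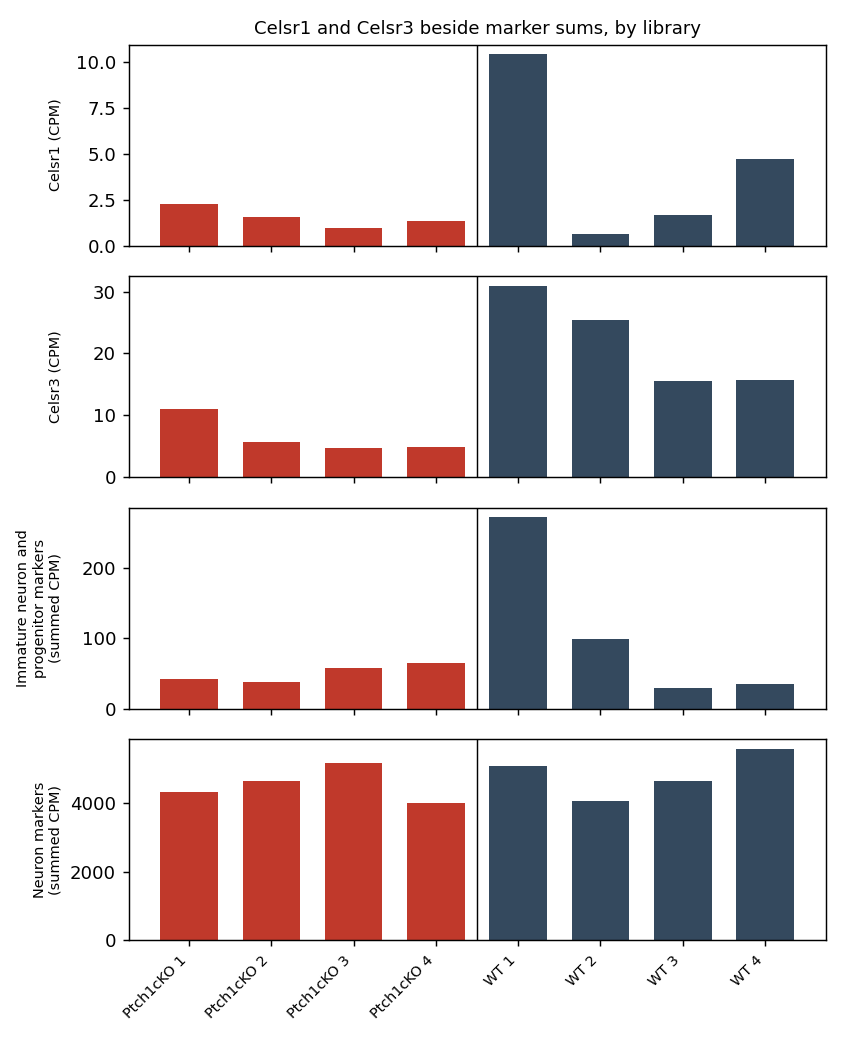
Bars give Celsr1 and Celsr3 in CPM and the summed CPM of the immature neuron and progenitor markers and of the neuron markers in each of the 8 libraries, Ptch1cKO left of the line and WT right of it. Celsr3 is at most 11.1 CPM in Ptch1cKO and between 15.5 and 31.0 CPM in WT. The immature neuron and progenitor sum is high in WT replicates 1 and 2 only, which does not hold for the neuron sum.

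Celsr2, known in mice for neuronal dendrites and ependymal cilia, had 88.5, 62.9, 65.2 and 73.7 CPM in Ptch1cKO replicates 1 to 4 and 64.8, 53.9, 92.4 and 45.1 CPM in WT replicates 1 to 4. The groups overlapped, and the highest and the lowest library were both WT. Its log2 fold change was 0.18 (SE 0.21). Celsr1, a planar polarity protein of the neural tube and inner ear in mice, had 16, 9, 4 and 8 counts in Ptch1cKO and 62, 4, 12 and 23 counts in WT. One WT library carried more than the other WT libraries together, and another had as few counts as the lowest Ptch1cKO library. The log2 fold change of Celsr1 was -1.45 (SE 0.67) with all libraries and -0.53 without WT replicate 1, the library with the highest progenitor marker sum, whose part in the result was not tested.

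In the authors' deposited TPM, Celsr3 gave 10.0, 7.52, 6.06 and 5.51% of the summed Celsr TPM in Ptch1cKO replicates 1 to 4, against 27.4, 29.9, 13.1 and 22.4% in WT replicates 1 to 4. Celsr2 gave 90.9 ± 2.36% in Ptch1cKO and 72.1 ± 9.52% in WT (SD, n = 4 each). Neither share overlapped between genotypes. The summed TPM of the family did overlap, at 19.2 ± 3.88 in Ptch1cKO and 22.8 ± 4.98 in WT (SD, n = 4 each).

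Among the teneurins, Tenm3 was lower in every Ptch1cKO library and the other 3 overlapped between genotypes. Tenm3, which in mice directs matching of axons and targets in the visual system and hippocampus, had 155, 150, 178 and 155 CPM in Ptch1cKO replicates 1 to 4, against 218, 251, 298 and 238 CPM in WT replicates 1 to 4. The 4 Ptch1cKO libraries lay close together and all lay below the lowest WT library. With 3616 pooled counts in Ptch1cKO and 6187 in WT it was also the gene with the most reads among the 10. The log2 fold change was -0.66 (SE 0.13), which is 0.634 times the WT level, and Tenm3 ranked 20th of 10954 genes by p (edgeR, Benjamini-Hochberg adjusted p = 0.0782; DESeq2, 0.00141). Over the alternatives tried the adjusted p lay between 0.00141 and 0.453, and the log2 fold change between -0.77 and -0.52. Tenm3 lies on chromosome 8 of GRCm38 at 48227682 to 48843951, minus strand, with 29 exons and 2715 codons in its longest coding transcript. An exon overlaps the opposite-strand transcript Gm19744. Likewise, exons of Tenm1 overlap the opposite-strand Sh2d1a, and exons of Tenm4 the opposite-strand C230038L03Rik. As no source used here gives the strand setting of the counting, reads of such overlapping genes cannot be told apart there.

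Tenm2, a ligand of latrophilins at synapses, had 76.5, 64.8, 128 and 67.9 CPM in Ptch1cKO replicates 1 to 4 and 132, 131, 96.9 and 78.2 CPM in WT replicates 1 to 4. Of the 4 Ptch1cKO libraries, 3 lay below all WT libraries, and Ptch1cKO replicate 3 lay among the highest. The log2 fold change was -0.38 (SE 0.23), and -0.05 with only WT replicates 3 and 4 as controls. The X-linked Tenm1 (chromosome X, 42527866 to 43429126, minus strand) had 14.6, 15.1, 27.1 and 15.7 CPM in Ptch1cKO replicates 1 to 4 and 12.8, 18.5, 34.2 and 31.3 CPM in WT replicates 1 to 4. Its lowest library was WT replicate 1, and its log2 fold change was -0.43 (SE 0.31). Of the WT libraries with high Xist counts, replicate 2 lay within the Tenm1 range of the other WT libraries and replicate 3 above it. Tenm4, required in mice for myelination, had 24.4 ± 4.79 CPM in Ptch1cKO and 25.3 ± 2.50 CPM in WT (SD, n = 4 each), with a log2 fold change of -0.06 (SE 0.21), positive (0.08) without Ptch1cKO replicate 2 and positive (0.06) in the 6 libraries with under 10 Xist counts.

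The summed teneurin TPM did not overlap between genotypes, at 67.4, 61.4, 82.8 and 65.7 in Ptch1cKO replicates 1 to 4, against 98.9, 113, 119 and 100.5 in WT replicates 1 to 4. The share of Tenm3 in that sum did overlap, at 53.3 ± 4.96% in Ptch1cKO and 58.1 ± 4.16% in WT (SD, n = 4 each). The share of Tenm4 was 6.82 to 9.83% in Ptch1cKO and 5.89 to 6.22% in WT. That share parted without overlap while the Tenm4 level did not. Tenm3 was the largest part of the sum in every library. The summed TPM and the Tenm4 share thus both contain the Tenm3 difference and are not separate from it.

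**Figure D3:**
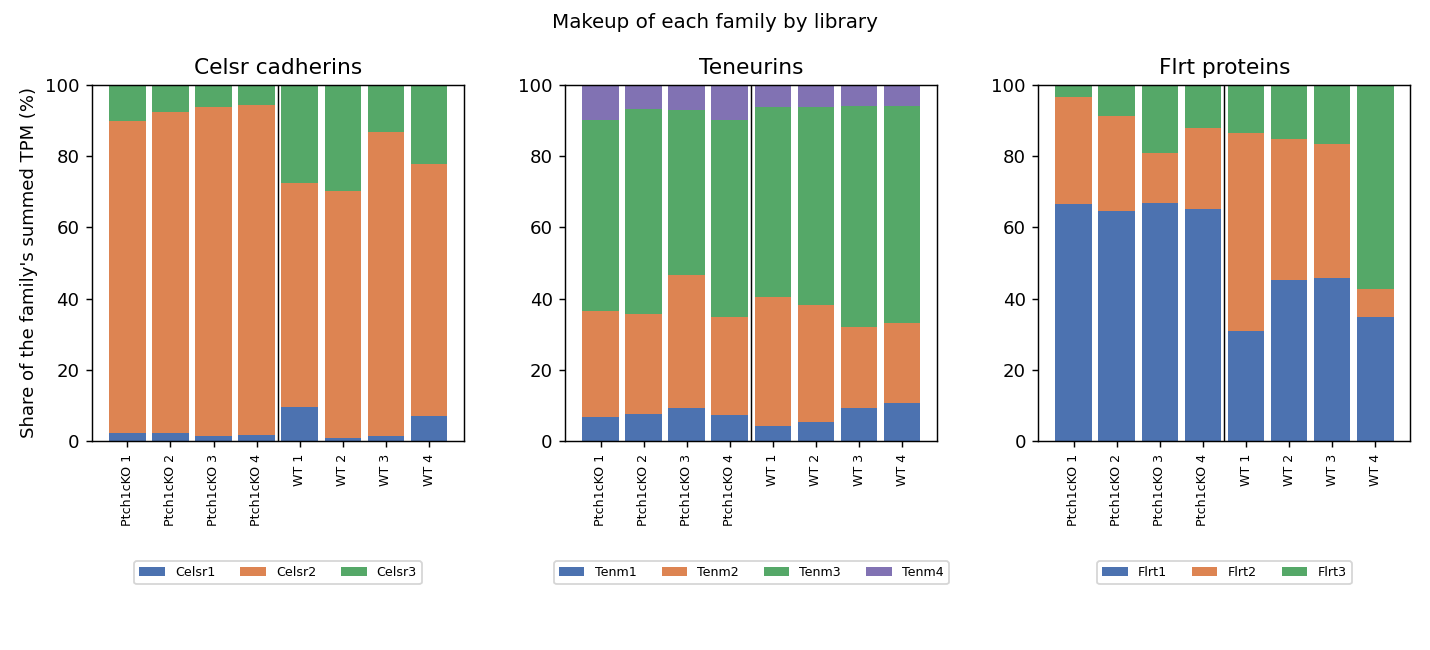
Stacked bars give the share of each gene (%) in the summed TPM of its family, for each of the 8 libraries, Ptch1cKO left of the line and WT right of it. The Celsr3 share is at most 10.0% in Ptch1cKO and at least 13.1% in WT, and the Flrt1 share is at least 64.6% in Ptch1cKO and at most 45.7% in WT.

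Among the Flrt genes, Flrt1 was higher in every Ptch1cKO library, while Flrt2 and Flrt3 overlapped between genotypes. Flrt1 had 17.8, 16.7, 14.5 and 16.4 CPM in Ptch1cKO replicates 1 to 4, against 9.42, 7.86, 10.9 and 10.5 CPM in WT replicates 1 to 4. The lowest Ptch1cKO library lay above the highest WT library. The log2 fold change was 0.76 (SE 0.23), which is 1.69 times the WT level, and Flrt1 passed by neither tool (edgeR, Benjamini-Hochberg adjusted p = 0.325; DESeq2, 0.0963). It was positive in all 17 alternatives, between 0.55 and 0.82. Flrt1 (chromosome 19, 7092001 to 7105729, minus strand) has its 674 codons in 1 exon and lies inside a gene on the opposite strand, Macrod1, without exon overlap. Macrod1, named here from the annotation and not by the rule for named genes, was too low to be tested, at 0.961 ± 0.401 CPM in Ptch1cKO and 0.979 ± 0.716 CPM in WT (SD, n = 4 each).

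Flrt2, which repels Unc5-bearing neurons, had 9.66, 8.34, 3.69 and 6.94 CPM in Ptch1cKO replicates 1 to 4 and 20.5, 8.33, 10.9 and 2.88 CPM in WT replicates 1 to 4. The highest and the lowest library were both WT. The log2 fold change was -0.56 (SE 0.45), and -0.05 without WT replicate 1. Flrt3, a latrophilin ligand at excitatory synapses, had 5, 10, 13 and 14 counts in Ptch1cKO and 19, 13, 22 and 65 counts in WT. The groups overlapped, and WT replicate 4 stood far above the rest. Its log2 fold change of -1.46 (SE 0.61) became -0.52 without WT replicate 4. Like Flrt1, Flrt3 has its coding sequence in 1 exon inside a gene on the opposite strand, here Macrod2, without exon overlap. Macrod2 had 24.1 ± 10.7 CPM in Ptch1cKO and 19.6 ± 7.33 CPM in WT (SD, n = 4 each).

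Flrt1 gave 66.7, 64.6, 66.9 and 65.2% of the summed Flrt TPM in Ptch1cKO replicates 1 to 4, against 30.9, 45.2, 45.7 and 34.7% in WT replicates 1 to 4. This share was nearly the same in the 4 mutant libraries and did not overlap with WT. It also depends on the scarce Flrt2 and Flrt3. The Flrt1 share was lowest in WT replicate 1, where Flrt2 gave 55.5%, and in WT replicate 4, where Flrt3 gave 57.4%. The summed Flrt TPM overlapped, at 10.8 ± 1.35 in Ptch1cKO and 12 ± 2.95 in WT (SD, n = 4 each).

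Planar polarity genes, the partners of Celsr proteins, were read from a list of 16, of which 10 could be tested. By edgeR none passed over all genes, 1 of the 10 had an unadjusted p under 0.05, which is close to the 9.34% of all tested genes, and 4 had positive and 6 negative fold changes (median -0.06). DESeq2 called none. The gene with that unadjusted p was Fzd3, the Frizzled receptor that acts with Celsr3 in axon tracts of mice, with 65.7 ± 5.55 CPM in Ptch1cKO and 89.2 ± 7.68 CPM in WT (SD, n = 4 each). Its groups did not overlap (background 5.02%), the log2 fold change being -0.44 (SE 0.14) and the adjusted p by edgeR 0.349. For the membrane protein Vangl2 the log2 fold change was 0.50 (SE 0.35), and for the adaptor Dvl3 it was 0.21 (SE 0.15). The remaining 6 listed genes were too low to be tested.

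The large cadherins Fat and Dachsous form a polarity system beside the Celsr one. Their list also held Fjx1, which is not a cadherin. Of its 7 genes 6 were in the table and 5 were tested, Fjx1 among them. All 5 fold changes were negative (median -0.19), against 5516 of the 10954 genes tested. None of the 5 passed over all genes by edgeR or DESeq2. Of the 5, only Dchs1 had an unadjusted p under 0.05 (background 9.34%), with 5.03 ± 1.56 CPM in Ptch1cKO and 11.7 ± 9.07 CPM in WT (SD, n = 4 each). WT replicate 1 held 24.4 CPM of it, and the log2 fold change of -1.21 (SE 0.48) became -0.58 without that library. For Fat3 the log2 fold change was -0.29 (SE 0.16), and for Fat1 it was -0.18 (SE 0.24), which turned positive (0.05) without WT replicate 3 and positive (0.06) in the 6 libraries with under 10 Xist counts.

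The binding partners of teneurins and Flrt proteins were read from a list of 10, all tested, with 3 positive and 7 negative fold changes (median -0.21). None passed over all genes by edgeR or DESeq2. Of the 10, only Dag1 had an unadjusted p under 0.05 (background 9.34%); it encodes dystroglycan, a receptor for laminins that has been reported to bind teneurins. It had 159 ± 45.1 CPM in Ptch1cKO and 98.4 ± 29.8 CPM in WT (SD, n = 4 each). The groups overlapped, the log2 fold change being 0.69 (SE 0.22) and the adjusted p by edgeR 0.349. The latrophilin Adgrl1, listed under its older symbol Lphn1, had 852 ± 95.9 CPM in Ptch1cKO and 976 ± 41.5 CPM in WT (SD, n = 4 each). Its log2 fold change was -0.20 (SE 0.12), and Fgfr1, an Flrt-binding growth factor receptor, had -0.39 (SE 0.23). The groups overlapped in all 10 partners.

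**Figure D4:**
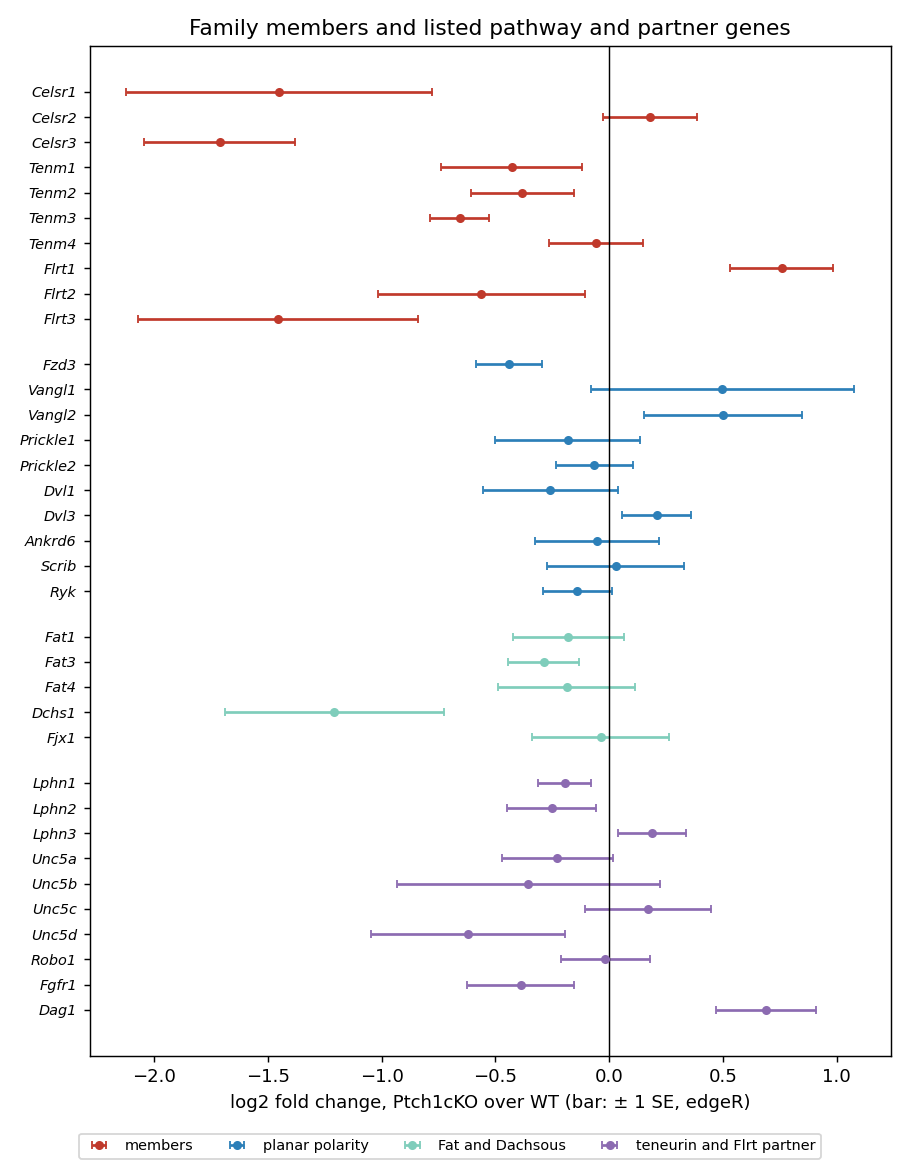
Log2 fold change of Ptch1cKO over WT with ± 1 SE (edgeR, n = 4 each) for the 10 family members and for the tested genes of the planar polarity, Fat and Dachsous, and teneurin and Flrt partner lists. Celsr3 lies at -1.71, Tenm3 at -0.66 and Flrt1 at 0.76, and none of the genes shown passed over all genes.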

How the data were processed

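The authors deposited unnormalized read counts by gene symbol for 8 libraries, and the deposited TPM are the authors' own, in a second table of 23585 rows. Per the submitters' processing notes, the tools were bcl2fastq 2.18 and STAR 2.5 and the build mm10. Per the labels' protocols, low-input cDNA was enriched by exome capture. Not given in the sources used here: counting program, annotation and strand setting.

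The count test was edgeR 4.0.16 in R 4.3.3, with TMM scaling. After filterByExpr (minimum count 10), 10954 of the 20578 detected genes remained. The robust quasi-likelihood F test compared 4 Ptch1cKO with 4 WT libraries, with Benjamini-Hochberg adjustment over all tested genes and a threshold of 0.05. CPM were computed on TMM-scaled totals. Each SE is the absolute log2 fold change divided by the square root of its F. Alternatives used DESeq2 1.42.0, limma 3.58.1 on log2(TPM + 1), and fewer libraries. No 2 libraries of 1 genotype agreed within sampling noise.

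Gene positions come from GENCODE M21. The members and lists were chosen with earlier results of these data known. Named genes are the 10 members, Ptch1, any called gene and the 3 smallest p-values of each of the 3 gene lists, and, for the member of each family with the highest mean CPM, the 3 genes closest to it over the 8 libraries. Outside this rule, Xist, Cldn5, Pecam1, Fjx1 and genes that overlap or contain a member are named. Column names carry prefixes that hold libraries of 1 genotype only, so a batch behind them and the genotype cannot be told apart. In WT, replicates 1 and 2 share 1 prefix and replicates 3 and 4 another.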

Additional observations from a re-analysis of the deposited data

Results flagged for a closer look

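In 58 sets of 4 libraries of 1 genotype (29 genes or marker sums), 5 held a library far from the other 3, where chance gives about 5%. Celsr3 was highest in Ptch1cKO replicate 1 at 11.1 CPM, with the nearest library of the group at 5.73 CPM. Tenm1 was highest in Ptch1cKO replicate 3 at 27.1 CPM, with the nearest at 15.7 CPM. Tenm4 was lowest in Ptch1cKO replicate 2 at 17.2 CPM, with the nearest at 26.6 CPM. Flrt3 was highest in WT replicate 4 at 13.4 CPM, with the nearest at 3.20 CPM. Dag1 was highest in WT replicate 3 at 143 CPM, with the nearest at 85.6 CPM. The cause of these gaps was not tested.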

How the results depend on the processing

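Of 338 fold changes recomputed for 20 genes under 17 alternatives, 5 turned sign: Tenm4 at 0.063 and Fat1 at 0.061 in the 6 libraries with under 10 Xist counts, Tenm4 at 0.083 without Ptch1cKO replicate 2 (range with 1 library left out -0.115 to 0.083), Fat1 at 0.045 without WT replicate 3 (range -0.399 to 0.045), and Flrt2 at 0.046 with only WT replicates 3 and 4. The cause was not tested. The genes called over all genes numbered 11 by edgeR, 79 by DESeq2, 199 without the count filter, 5 with the replicate block, 3 in the 6 libraries with under 10 Xist counts (fewer samples), 2 and 2 by limma on log2(TPM + 1) and log2(TPM + 0.1), 0 by limma without a filter (1545 with an unadjusted p under 0.05) and 1 with only WT replicates 3 and 4. Leaving out 1 library gave 1 to 19 calls: 6, 19, 4 and 2 without Ptch1cKO replicates 1 to 4, and 2, 1, 1 and 1 without WT replicates 1 to 4. Among the 10 members the count was 0 by edgeR, 2 by DESeq2, 2 without the filter (Celsr3 and Tenm3 each time), 1 with the replicate block (Celsr3, adjusted p = 0.0467), and 0 to 1 with 1 library left out. Without the filter 1 Fat and Dachsous gene (Dchs1) and 1 partner gene (Dag1) passed, and with 1 library left out 0 passed in the 3 lists. For samples with the same replicate number in their titles, the correlation of their deviations was 0.025, -0.18, -0.11 and -0.023. By these numbers 0 of 4 Ptch1cKO libraries were closest to the WT library of their own number. The column names number Ptch1cKO replicates 3 and 4 differently from the titles. The replicate block used the title numbers too, and a pairing by other numbers was not tested. Celsr1 and Flrt3 had at most 65 counts in a library, which limits their precision.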

Other observations

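The genes closest in pattern to 1 member of each family were read from the root mean square difference of log2(CPM + 1) deviations over the 8 libraries, among 6755 genes averaging 10 CPM or more, as a description. For Tenm3 these were Raph1 at 0.10, Hira at 0.11 and Lrfn5 at 0.14, and their log2 fold changes between genotypes were -0.74, -0.57 and -0.60. For Flrt1 they were Tmem176a at 0.095, Abhd4 at 0.11 and Ctsb at 0.14, and their log2 fold changes between genotypes were 0.84, 0.78 and 0.56. For Celsr2 they were Cyp46a1 at 0.088, Zfyve20 at 0.13 and Bre at 0.13, and their log2 fold changes between genotypes were 0.14, 0.05 and 0.09. Of these 9 genes Abhd4 alone passed over all genes (edgeR, Benjamini-Hochberg adjusted p = 0.0356), against 0.10% of all tested genes. The difference between genotypes is part of the pattern matched. Similar fold changes therefore follow from the choice of genes, and nothing is read from them.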
